A study of Mus musculus with 3 samples.

Results

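The autophagy and mitophagy genes described here are 37 genes chosen by symbol from what their proteins do, out of 46316 gene symbols in the deposited tables. Each gene was represented by its transcript row with the highest summed count, and all 37 were present and passed the filter on low counts (a mean of at least 1 CPM, the usual depth-scaled count). They were measured by RNA-seq in C2C12 cells, mouse myoblasts of an immortalised line able to form myotubes, taken 4 days into differentiation. One library came from wild-type cells (WT), one from cells with a Drp1 knockout (KO), and one from such knockout cells in which FLAG-tagged Drp1 was expressed transiently (rescue). All 3 underwent myogenic differentiation, and there was 1 library per group. How the knockout was made, whether the line is 1 clone, and how many cells took up FLAG-Drp1 were not given in the sources used here. Since no group was replicated, no difference below has a test of the conditions. Each log2 ratio compares TMM-scaled counts (TMM sets 1 factor per library so that most genes are level) and carries a 95% counting interval, which covers counting error only, and each sentence describes these libraries.

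Autophagy encloses cytoplasm in a double membrane, the autophagosome, and delivers it to the lysosome. The ULK kinase complex starts it, a lipid kinase complex built on beclin 1 and Vps34 marks the membrane with PI3P, and 2 ubiquitin-like conjugation systems attach small ATG8 proteins (LC3 and GABARAP) to the growing membrane. Cargo receptors bind both ATG8 and the cargo. In mitophagy the cargo is a mitochondrion, marked by ubiquitin after PINK1 accumulates on it or by receptors in its outer membrane. Drp1, the GTPase that divides mitochondria, is often discussed beside mitophagy because small fragments are engulfed more easily than a long network. In muscle, autophagy genes are known targets of FoxO factors, of TFEB and, under amino acid or mitochondrial stress, of ATF4.

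The libraries had similar depth, between 13790417 and 13925296 gene counts, and their TMM scaling factors lay between 0.989 and 1.01. Dnm1l, the gene of Drp1, was counted 1823 times in WT, 1284 times in KO and 1481 times after rescue. Its RNA was thus present in all 3 libraries and by itself does not check the knockout label. The 8 myotube markers used for this check were all detected, with a summed level of 14173 CPM in WT, 14725 in KO and 18352 in rescue. Within that list Ckm, the muscle creatine kinase, had 4406, 1424 and 3527 counts. The sum hides opposite directions in KO against WT. Acta1, Myh3 and Myog were higher (log2 ratios 0.22, 0.33 and 0.47). Ckm, Des, Tnnt1, Mymk and Tnnt3 were lower (-1.60, -0.47, -0.37, -0.24 and -0.22). All 8 were higher in rescue than in KO, from 0.10 (Myog) to 1.31 (Ckm). The 4 myoblast markers summed to 860 CPM in WT, 317 in KO and 368 in rescue, and the 4 fibroblast markers to 750.0, 1507 and 1322 CPM, with Col1a1 (5243, 18763 and 16217 counts) and Dcn (5177, 1787 and 1792) going opposite ways. Among these markers Pax7 had at most 8 counts and Thy1 at most 1 in any library. Markers of adipocytes, macrophages and endothelium summed to at most 4.20 CPM per list, with Adipoq, Cidec, Ptprc, Adgre1 and Pecam1 at 0 counts in every library. Single myotube markers and the myoblast and fibroblast sums differed between WT and KO, and their part in the values below was not tested. In bulk RNA, fewer cells of a type and less RNA per cell cannot be told apart.

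The autophagy machinery was expressed in all 3 libraries. Its summed counts were somewhat lower in KO and in rescue than in WT (log2 ratios -0.18 and -0.12). No gene of the 37 differed 2-fold between any 2 libraries. Only Gabarapl2, an ATG8 gene, passed 1.5-fold in KO against WT, where it was lower, and only Map1lc3a, the gene of LC3A, passed 1.5-fold in rescue against WT, where it was higher. None passed 1.5-fold in rescue against KO. Among all 13381 genes that passed the filter, 5.35% passed 2-fold as higher in KO than in WT and 4.07% as lower. At 1.5-fold, 12.1% were higher and 10.4% lower. In rescue against KO the 2-fold shares were 1.30% higher and 0.575% lower, and the 1.5-fold shares were 3.81% and 2.77%. In rescue against WT the 2-fold shares were 4.59% and 3.06%, and the 1.5-fold shares were 10.4% and 7.99%. All 37 genes have a mean of 7.09 CPM or more. Among the 10973 genes with a mean of at least 5 CPM the 1.5-fold shares of KO against WT were 9.39% higher and 7.65% lower, those of rescue against KO 1.69% and 0.711%, and those of rescue against WT 7.38% and 5.27%. The 2 comparisons with KO share the KO library and the 2 with WT share the WT library, so they are not independent.

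**Figure D1:**
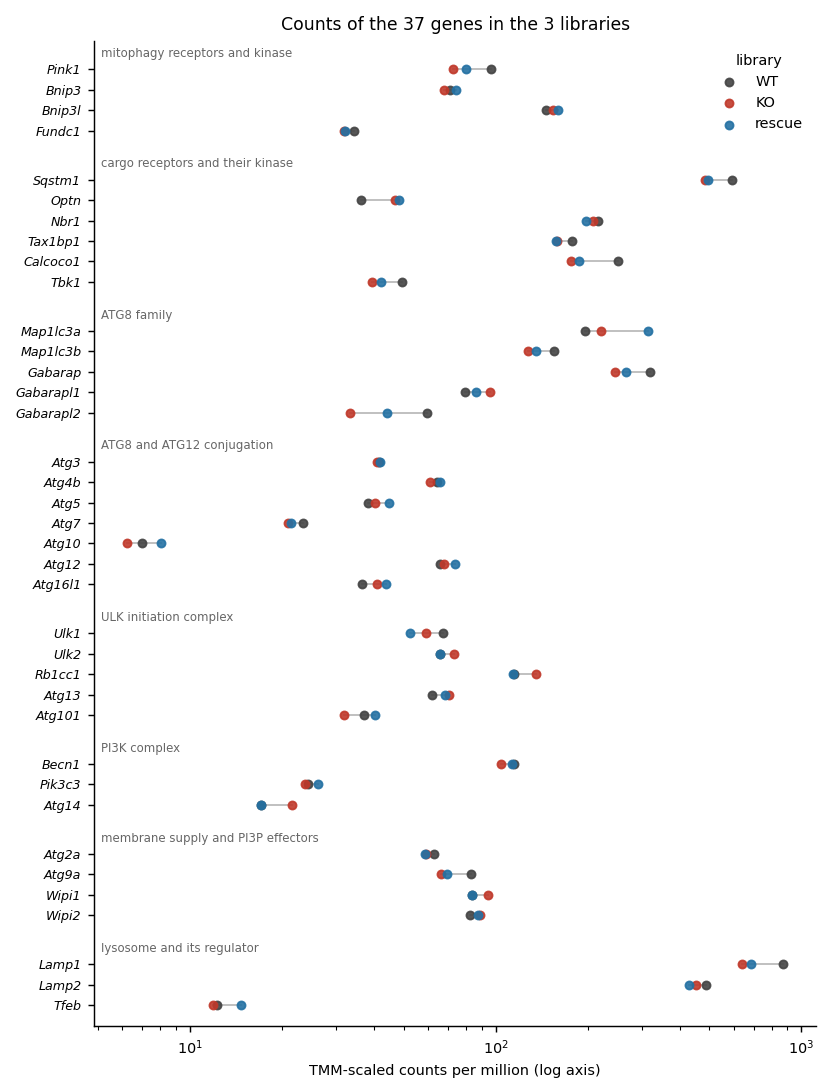
CPM (TMM-scaled counts, log axis) of the 37 genes in WT, KO and rescue, 1 point per library, grouped by role. The points of a gene lie close together beside the range from Atg10 (6.23 in KO) to Lamp1 (873 in WT), and the widest gaps belong to Gabarapl2 and Map1lc3a.

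The median log2 ratio of the 37 genes was -0.08 in KO against WT, 0.06 in rescue against KO and -0.0026 in rescue against WT. Over all genes tested the medians were 0.00051, 0.0029 and 0.0099. The median size of a difference, regardless of sign, was 0.17 for the 37 genes and 0.28 for all genes in KO against WT. It was 0.10 and 0.16 in rescue against KO, and 0.16 and 0.24 in rescue against WT. Among genes with a mean of at least 5 CPM, nearer the depth of the 37, it was 0.25, 0.14 and 0.21 in the same order. In KO against WT the counting interval lay above 0 for 8 of the 37 (29.0% of all genes) and below 0 for 14 (29.3%). In rescue against KO it lay above 0 for 10 (17.7%) and below for 8 (17.7%), and in rescue against WT above for 7 (26.9%) and below for 13 (25.4%). The depth would have shown larger differences. The whole counting interval lay inside 2-fold for 36 of the 37 in KO against WT, the exception being Gabarapl2, and for all 37 in both other comparisons. It lay inside 1.5-fold for 35 in KO against WT, for 33 in rescue against KO and for 35 in rescue against WT. Of the 10973 genes with a mean of at least 5 CPM it lay inside 2-fold for 9758, 10766 and 10065, in the same order. Inside 1.5-fold it lay for 7311, 9492 and 7922 of them, so in rescue against KO the 37 resembled that set. The width of an interval depends on depth, and that set was not matched to the 37 in depth. The most abundant members weighed on the total: the summed counts of all 37 were 69469 in WT, 60350 in KO and 62622 in rescue, a log2 ratio of -0.18 (interval -0.19 to -0.16) for KO against WT.

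**Figure D2:**
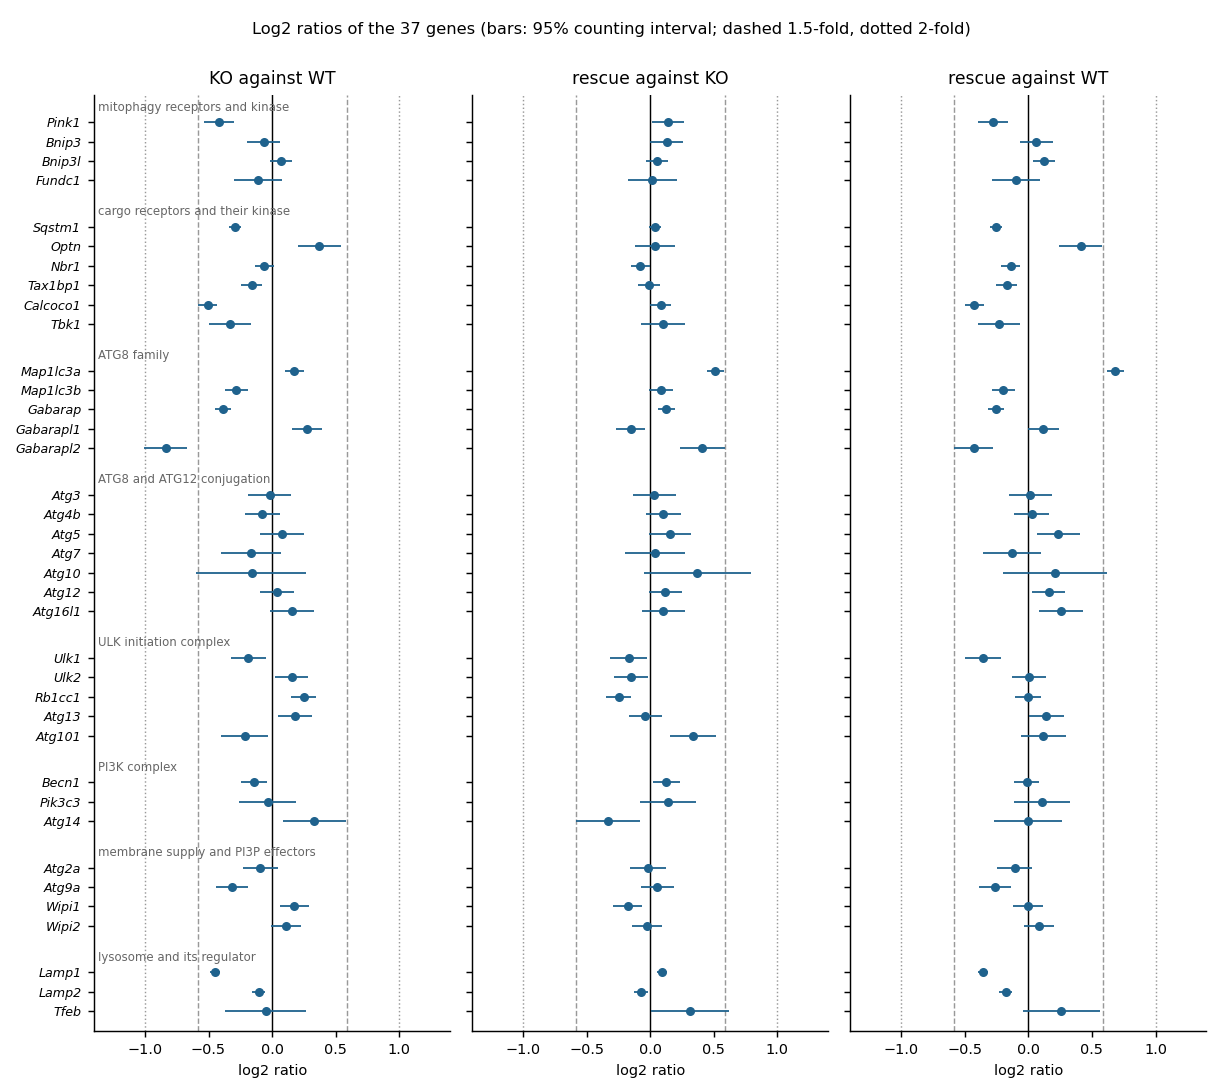
Log2 ratios of the 37 genes between each pair of libraries, with 95% counting intervals as bars, by role. All points lie inside the dotted 2-fold lines. Gabarapl2 (-0.84, KO against WT) and Map1lc3a (0.68, rescue against WT) are the points beyond the dashed 1.5-fold lines.

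Among the mitophagy genes, Pink1 stood apart and the receptors did not. Pink1, the kinase that accumulates on damaged mitochondria, had 1359 counts in WT, 1001 in KO and 1100 after rescue. It was 1.33-fold lower in KO than in WT (log2 ratio -0.42, interval -0.53 to -0.30) and remained 1.21-fold lower in rescue. WT was thus the highest of the 3, and rescue lay only 1.10-fold above KO. Bnip3, an outer membrane receptor induced by hypoxia, had 998 counts in WT, 937 in KO and 1023 after rescue. Its close relative Bnip3l (NIX) had 2060, 2122 and 2201, and Fundc1, another receptor, had 483, 440 and 444. For these 3 receptors the interval of KO against WT held 0, and the whole interval lay between -0.30 and 0.16. A pseudogene, Bnip3l-ps, had 133, 148 and 136 counts, and how reads matching both copies were counted is not given.

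Of the 6 genes of cargo receptors and their kinase, 5 had a log2 ratio below 0 in KO against WT, and Optn lay above. Among all genes 6679 of 13381 lay below 0. The counting interval lay below 0 for 4 of the 6 (29.3% of all genes) and above 0 for Optn (29.0%). Sqstm1 (p62), the best known receptor and itself degraded by autophagy, had 8312 counts in WT, 6680 in KO and 6837 after rescue. It was 1.22-fold lower in KO (-0.29, interval -0.34 to -0.24), and rescue lay within counting error of KO (0.04, interval -0.01 to 0.09). Calcoco1, a receptor for endoplasmic reticulum and Golgi, had 3529, 2443 and 2579 counts and was 1.42-fold lower in KO (-0.51, interval -0.58 to -0.43), which made it second to Gabarapl2 among the 37. WT was the highest library for both genes, and KO and rescue were close to each other. Optn (optineurin), a receptor for ubiquitinated mitochondria, had 510 counts in WT, 648 in KO and 665 after rescue. It was 1.29-fold higher in KO (0.37, interval 0.20 to 0.54) and 1.33-fold higher in rescue than in WT. Tbk1, the kinase that phosphorylates optineurin and p62, had 695, 543 and 581 counts and was 1.26-fold lower in KO. Tax1bp1 (2496, 2192 and 2177 counts) and Nbr1 (3045, 2868 and 2711), receptors for ubiquitinated cargo, differed from WT by at most 1.12-fold in either library. The interval of Nbr1 in KO against WT held 0 (-0.14 to 0.01). In rescue against KO all 6 genes of this group lay between -0.08 and 0.10.

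The ATG8 family showed the widest spread, and its 5 members differed in direction. Gabarapl2 (GATE-16) had 837 counts in WT, 460 in KO and 610 after rescue. It was 1.79-fold lower in KO than in WT (log2 ratio -0.84, interval -1.01 to -0.67), 1.33-fold higher in rescue than in KO (0.41, interval 0.23 to 0.59) and 1.35-fold below WT in rescue (-0.43, interval -0.58 to -0.28). KO was the lowest library and rescue lay between it and WT. Map1lc3a had 2761 counts in WT, 3058 in KO and 4350 after rescue. KO was 1.13-fold above WT (0.17, interval 0.10 to 0.25), while rescue was 1.43-fold above KO (0.51, interval 0.44 to 0.58) and 1.61-fold above WT (0.68, interval 0.61 to 0.75). Here the rescue library was the highest and WT the lowest. Gabarap, the founding member of its branch, had 4489, 3379 and 3684 counts and was 1.31-fold lower in KO (-0.38, interval -0.45 to -0.32). Map1lc3b, the gene of LC3B, the usual autophagosome marker, had 2181, 1762 and 1866 counts and was 1.22-fold lower in KO (-0.28, interval -0.37 to -0.19). Gabarapl1 had 1118, 1327 and 1190 counts and was 1.21-fold higher in KO (0.27, interval 0.16 to 0.39). So 2 of the 5 were above WT in KO and 3 below, and no interval of the 5 held 0.

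These unequal differences altered the make-up of the family within each library, a measure that no scaling between libraries enters. The genes of the family differ in length, so the length trend described below was not removed from these shares. Map1lc3a was 24.2% of the family's counts in WT (exact 95% interval 23.46 to 25.05), 30.6% in KO (29.7 to 31.5) and 37.2% in rescue (36.3 to 38.1). Gabarap was 39.4% in WT, 33.8% in KO and 31.5% in rescue. Gabarap was thus the leading ATG8 gene by counts in WT and KO, and Map1lc3a in rescue. Gabarapl2 was 7.35% in WT (interval 6.88 to 7.85), 4.61% in KO (4.20 to 5.04) and 5.21% in rescue (4.82 to 5.63), and Gabarapl1 was 9.82%, 13.3% and 10.2%. Per kilobase of transcript, Gabarap stood at 285 in WT, 218 in KO and 238 in rescue, and Map1lc3a at 188, 212 and 302 (TMM-scaled CPM per kilobase). Map1lc3b, Gabarapl1 and Gabarapl2 lay between 34.0 and 60.8 on that scale. The family's summed counts were 11386 in WT, 9986 in KO and 11700 in rescue, a log2 ratio of -0.16 (interval -0.20 to -0.13) in KO against WT and of 0.07 (0.03 to 0.10) in rescue against WT. In rescue against WT, Map1lc3a (0.68) and Gabarapl1 (0.12, with an interval that held 0) lay above 0 and the other 3 genes below.

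**Figure D3:**
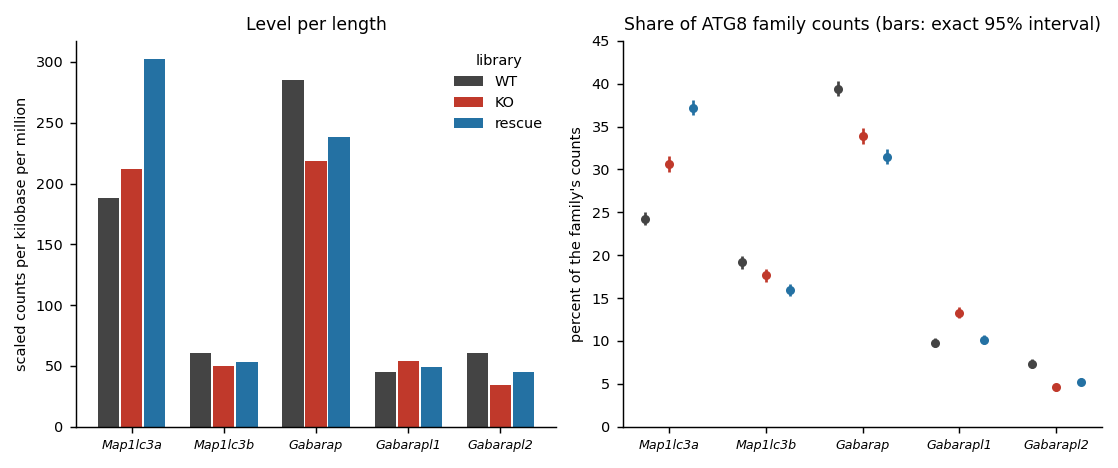
Left, level per length of the 5 ATG8 genes in the 3 libraries (bars from 0, TMM-scaled CPM per kilobase). Right, each gene's percent of the family's counts with exact 95% intervals: Map1lc3a has 24.2% in WT, 30.6% in KO and 37.2% in rescue, while Gabarapl2 has 7.35%, 4.61% and 5.21%.

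The conjugation machinery differed little between KO and WT. It comprises Atg7, the E1 enzyme of both systems, the E2 enzymes Atg3 and Atg10, the protease Atg4b that trims ATG8, and Atg12, Atg5 and Atg16l1, which form the E3-like complex. In KO against WT the 7 log2 ratios lay between -0.17 and 0.16, and all 7 intervals held 0. Atg3 had 584, 567 and 579 counts in WT, KO and rescue, and Atg4b had 905, 843 and 903. Atg7 had 330, 289 and 296 counts, and the scarce Atg10 had 98, 86 and 111. Atg5 had 536, 556 and 618 counts, Atg12 had 927, 937 and 1016, and Atg16l1 had 515, 564 and 604. In rescue these 3 genes were 1.12-fold to 1.20-fold above WT, with intervals above 0. In rescue against KO all 7 intervals again held 0. The interval of Atg10 was the widest of the 37 (-0.60 to 0.27 in KO against WT).

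In the ULK complex the members went both ways by small amounts. Ulk1, the kinase, had 945 counts in WT, 815 in KO and 723 after rescue, and its paralogue Ulk2 had 922, 1009 and 907. Ulk1 was 1.14-fold lower in KO (-0.19, interval -0.33 to -0.05) and 1.28-fold lower in rescue than in WT (-0.36, interval -0.50 to -0.22). Rb1cc1 (FIP200), the scaffold of the complex, had 1609, 1876 and 1575 counts, and Atg13, which bridges the kinase to it, had 870, 970 and 942. Rb1cc1 was 1.19-fold higher in KO than in WT, and rescue and WT were at one level (log2 ratio -0.0026, interval -0.10 to 0.10). Atg101, the partner of Atg13, had 523, 442 and 557 counts and was 1.16-fold lower in KO and 1.26-fold higher in rescue than in KO. Within the lipid kinase complex, Becn1 (beclin 1) had 1608, 1433 and 1562 counts, and Pik3c3 (Vps34, the catalytic subunit) had 342, 328 and 361. Atg14, which directs that complex to autophagosomes, had 241, 298 and 236 counts. It was 1.26-fold higher in KO (0.33, interval 0.08 to 0.58) and equal in WT and rescue within counting error. None of these 8 genes passed 1.5-fold in any pair.

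Membrane supply and lysosomal genes held the most abundant member. Atg9a, the scramblase carried on seed vesicles, had 1164, 917 and 952 counts in WT, KO and rescue and was 1.25-fold lower in KO (-0.32, interval -0.45 to -0.19). Atg2a, the lipid transfer protein that works with it, had 886, 817 and 807. Wipi1 and Wipi2, which read PI3P, had 1174, 1302 and 1149 counts and 1158, 1226 and 1202 counts. Lamp1, an abundant glycoprotein of the lysosomal membrane, had 12263 counts in WT, 8826 in KO and 9391 after rescue, and was 1.37-fold lower in KO (-0.45, interval -0.49 to -0.41). WT was again the highest library, and rescue stayed 1.28-fold below it. Lamp2, needed for fusion and for chaperone-mediated autophagy, had 6823, 6225 and 5910 counts and was 1.08-fold lower in KO. Tfeb, the transcription factor that drives lysosomal and autophagy genes, had 173, 164 and 203 counts. Its interval in KO against WT ran from -0.37 to 0.26.

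Ranked per length, Lamp1 led in every library (391 in WT, 287 in KO and 306 in rescue, in TMM-scaled CPM per kilobase). Gabarap and Map1lc3a took the next places, in that order in WT and KO and in the reverse order in rescue. Lamp2 (134, 125 and 119) and Sqstm1 (106, 86.4 and 88.6) followed. The 5 lowest genes in WT (Atg10, Pik3c3, Atg14, Tfeb and Atg7) lay between 3.51 and 6.32 over the 3 libraries. Gabarapl2 went from place 7 in WT to 15 in KO and 13 in rescue. The level of a gene depends on the transcript length assigned to it: Sqstm1 would stand at 309 in WT with its shortest mRNA row of nearly equal count (1916 bases in place of 5602).

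Ratios between paralogues inside 1 library also avoid any scaling between libraries. They do not avoid the length trend described below where the paralogues differ in length. In rescue against KO that trend was 0.19 for Map1lc3a (1045 bases) and 0.04 for Map1lc3b (2560 bases). For Gabarapl2 (980 bases) it was 0.19, and for Gabarapl1 (1773 bases) 0.09. Map1lc3a had 1.27 counts per count of Map1lc3b in WT (exact 95% interval 1.20 to 1.34), 1.74 in KO (1.64 to 1.84) and 2.33 in rescue (2.21 to 2.46). Gabarapl1 had 1.34 counts per count of Gabarapl2 in WT (1.22 to 1.46), 2.88 in KO (2.59 to 3.21) and 1.95 in rescue (1.77 to 2.15). For both pairs no interval of one library overlapped that of another. The ratio of Lamp1 to Lamp2 was 1.80 in WT, 1.42 in KO and 1.59 in rescue, and that of Ulk1 to Ulk2 was 1.02, 0.808 and 0.797. The mitophagy receptors Bnip3l and Bnip3 kept closer to each other, at 2.06, 2.26 and 2.15, with overlapping intervals.

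Transcript rows of a gene gave nearly the same picture. Of the 37 genes, 7 had 1 row and 30 had more. Among 115 further mRNA rows, 91 held at least 98% of the count of the gene's highest row in every library. Of all 125 further rows, 118 gave a log2 ratio of KO against WT inside the gene's own counting interval. Lamp2 is known for splice forms that differ in the membrane anchor. Its annotated transcript variant 1 (NM_001017959.2) held 54.4% of the gene's highest row in WT (exact 95% interval 53.3 to 55.6), 56.7% in KO (55.4 to 57.9) and 55.8% in rescue (54.5 to 57.0). Variant 3 (NM_001290485.2) held 51.8%, 54.2% and 52.3%. Rows share exons, so these shares are not those of the splice forms themselves. A short variant of Becn1 (NM_001359821.1) held 26.3%, 29.7% and 28.7% of the gene's highest row. By that row Becn1 had a log2 ratio of 0.04 in KO against WT, beside -0.14 for the gene.

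Exons of 12 of the 37 genes overlap another annotated gene (GENCODE M21, used for names and strands), and for 5 of these it is a protein-coding gene on the opposite strand. The strand setting of the counting is not given, so reads of both partners cannot be told apart there. Lamp1 shares 249 bases with Grtp1 (214, 97 and 145 counts), Sqstm1 580 bases with Mrnip (68, 43 and 71) and Map1lc3b 58 bases with Zcchc14 (830, 971 and 783). The partners of Lamp1 and Sqstm1 had few counts beside them. Gabarapl2 and Map1lc3a overlap no other gene in that annotation.

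The short ATG8 genes need to be read beside transcript length, because the KO library differed from both others along it. Among 555 mRNA genes of 900 to 1300 bases with a mean CPM of at least 5, the median log2 ratio was -0.20 in KO against WT, and rescue against KO gave 0.20. Among 2493 genes of 5000 bases or more it was 0.14 and -0.15. Of the 37 genes, 4 fall in the short band: Gabarapl2 (980 bases), Map1lc3a (1045), Gabarap (1122) and Atg101 (1230). In KO against WT, Gabarapl2 lay at percentile 5.23 of that band and Map1lc3a at 85.6, and in rescue against KO they lay at 89.2 and 95.5. With the length trend of all genes removed, Gabarapl2 was at -0.69 in KO against WT, and Map1lc3a was at 0.32. In rescue against KO the values were 0.22 for Gabarapl2 and 0.33 for Map1lc3a, in place of 0.41 and 0.51. Gabarap went from 0.13 to -0.05 in rescue against KO, so its direction there turned. Atg101 went from -0.22 to -0.08 in KO against WT and from 0.34 to 0.18 in rescue against KO. These Atg101 values stayed inside its counting intervals. Rb1cc1, whose row has 7398 bases, went from 0.25 to 0.10 in KO against WT and from -0.25 to -0.10 in rescue against KO. Sqstm1, taken at 5602 bases, went from 0.04 to 0.14 in rescue against KO, outside the counting interval given above. That value rests on the length used, as an Sqstm1 row of nearly equal count has 1916 bases. At 1914 bases the rescue against KO trend was 0.08, above the ratio of 0.04, and at 5602 bases it was -0.10. Ulk2, taken at 10561 bases, turned from 0.16 to -0.03 in KO against WT. That turn rests on the length used, as a Ulk2 row of nearly equal count has 5813 bases. At 5811 bases the KO against WT trend was 0.11, below the ratio of 0.16, and at 10561 bases it was 0.19. In rescue against WT, which shows little length trend over these lengths, Map1lc3a was at 0.65.

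**Figure D4:**
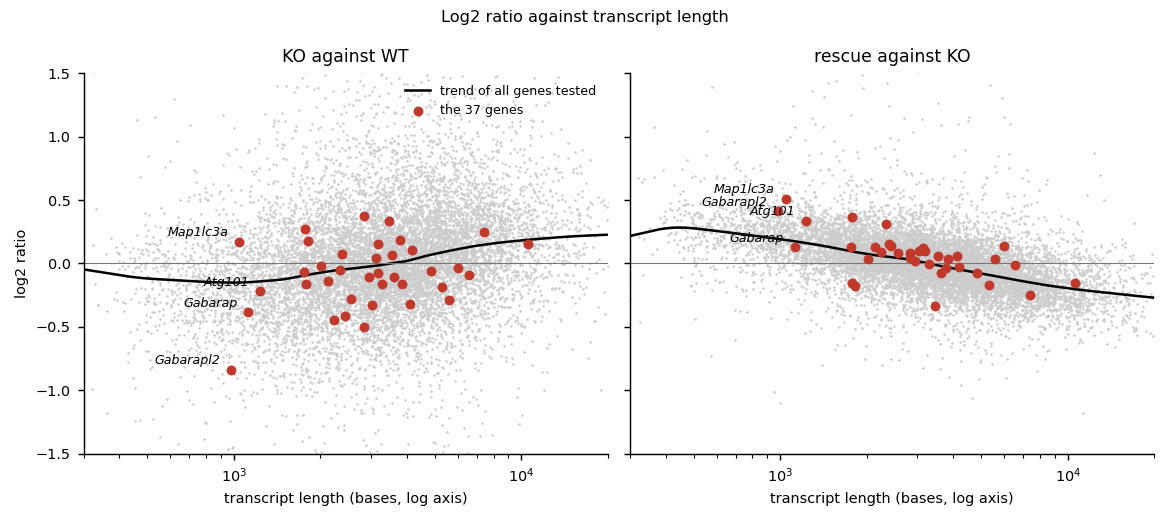
Log2 ratio against transcript length (log axis) for KO against WT (left) and rescue against KO (right). Grey points are genes with a mean CPM of at least 5 (those beyond the axes are not drawn), the black line is the trend of all genes tested, and red points are the 37 genes. Over the lengths of the 37 genes (980 to 10561 bases) the line goes from below 0 to above 0 on the left and from above 0 to below 0 on the right, and Map1lc3a lies above it in both panels.

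Genes next to these in the pathway, taken from lists of known function, were described the same way. Their 2-fold counts stand beside 5.35% higher and 4.07% lower of all genes in KO against WT. Of 25 other core autophagy genes, 1 passed 2-fold as higher in KO against WT and none as lower, with a median log2 ratio of -0.06. The one was Epg5, a tether for autophagosome and lysosome, with 498 counts in WT, 1161 in KO and 818 after rescue (2.37-fold higher in KO). Bcl2, which binds and restrains beclin 1, had 333, 190 and 138 counts, the lowest in rescue. Of 24 further mitophagy and receptor genes 22 passed the filter, none differed 2-fold, and the median was -0.05. Ccpg1, a receptor for endoplasmic reticulum, was 1.55-fold lower in KO (953, 605 and 674 counts), and Nipsnap1, a mitochondrial matrix protein that can mark damaged mitochondria, was 1.61-fold higher (87, 138 and 150). Usp30, a deubiquitinase of the mitochondrial outer membrane, had 404, 454 and 368 counts, and Pgam5, a mitochondrial phosphatase, had 682, 594 and 711. Of 36 genes of autophagosome fusion and the lysosome none differed 2-fold, and the median was -0.03. Vamp8, a SNARE of that fusion, had 778, 457 and 613 counts and was 1.67-fold lower in KO. Cd63, a tetraspanin of late endosomes, had 19365, 13890 and 16022. Gaa, the lysosomal glucosidase that digests glycogen, had 1542, 2459 and 2189 and was 1.62-fold higher.

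Regulators upstream of the pathway were described next. Of 28 genes of mTORC1, AMPK and transcriptional control, 2 passed 2-fold as higher in KO against WT and 2 as lower, with a median of -0.0060. These small counts stand beside 5.35% and 4.07% of all genes and single out no more than the genes named. Sesn2, a stress-induced inhibitor of mTORC1, had 217 counts in WT, 521 in KO and 428 after rescue (2.44-fold higher in KO). Prkaa2, the AMPK catalytic subunit typical of muscle, had 103, 25 and 33 counts (3.99-fold lower in KO, log2 interval -2.71 to -1.38). Foxo3, a FoxO factor that drives autophagy genes in muscle, had 868, 1147 and 935. The others were Ddit4 (296, 674 and 647 counts) and Sesn3 (28, 10 and 13), both named after their values were seen. Sesn2 and Ddit4 also belong to the list of ATF4 and its targets, of which 19 of 20 passed the filter. In that list 13 of the 19 passed 2-fold as higher in KO against WT and none as lower, with a median of 1.29, for example Trib3 (145, 836 and 720 counts) and Cth (47, 370 and 341). Fgf21, a stress hormone released by muscle, had 151, 815 and 994 counts, and Slc7a11, a cystine transporter, had 34, 115 and 81. Of the 12 autophagy genes described as ATF4 or CHOP dependent in other cells, none was 1.5-fold higher in KO and 1 (Gabarapl2) was 1.5-fold lower. Their median was -0.15. Over all genes 12.1% were 1.5-fold higher and 10.4% lower, so the counts among these 12 are near those shares. These lists were chosen with earlier results of these data known, and the difference between them was not tested.

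**Figure D5:**
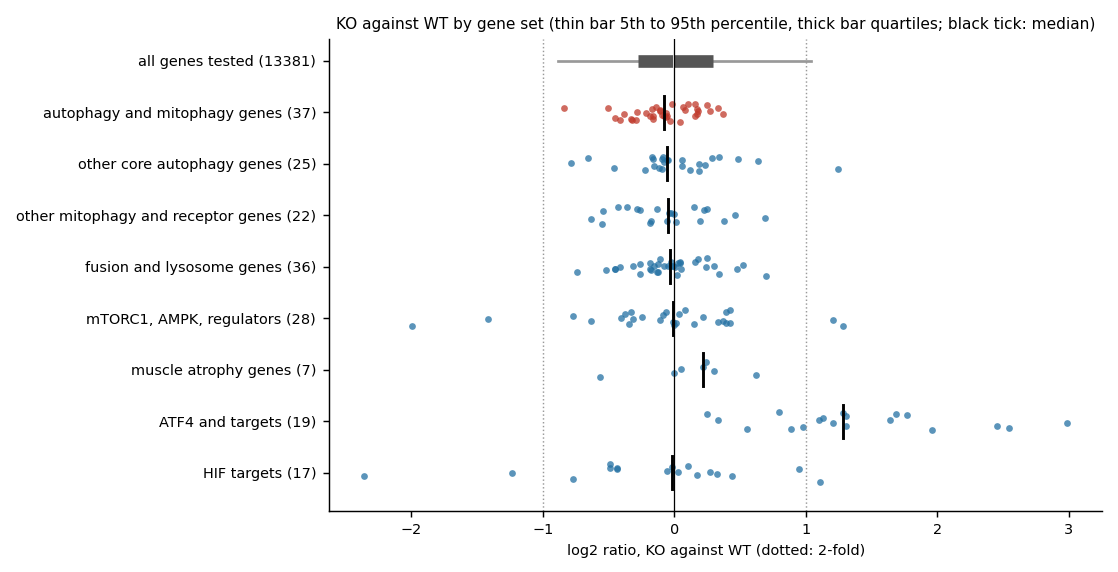
Log2 ratio of KO against WT for the 37 genes (red) and for 7 other lists (blue), 1 point per gene that passed the filter, with the median as a black tick and the spread of all 13381 genes on top. The 37 genes lie between -0.84 and 0.37 with a median of -0.08, and the ATF4 list has a median of 1.29.

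Start-site sequences were compared because the ATF4 list and the autophagy genes differed in these libraries while sharing a described regulator. The 250 bases before the start site were taken from RefSeq (build GRCm38.p6) for the 30 of the 37 genes with an entry, and 4 motifs were searched on both strands. The motif TGATGNAA, the core of the ATF4 element, was in none of the 30, in 6 of 19 promoters of the ATF4 list (Asns, Atf3, Chac1, Fgf21, Slc7a11 and Vldlr) and in 3.45% of all 32851 promoters. The motif CACGTG, the core of the TFEB element and of other E-box factors, was in 5 of the 30 (Atg3, Atg5, Atg7, Bnip3 and Lamp1), in 2 of the 19 of the ATF4 list (Fgf21 and Gdf15) and in 6.02% of all. Its longer form TCACGTGA, which contains CACGTG, was in 1 (Atg3) and in 0.785% of all. The FoxO motif GTAAACA was in none of the 30 and in 3.17% of all. The median GC content of these windows was 59.6% for the 30 genes and 52.4% for all promoters, and its part in the motif counts was not tested. A match describes letters in this window, and no match says nothing of the factor. Lamp1, the most abundant of the 37, held 4 copies of CACGTG. The sequences below run 5′ to 3′ along the gene, with the searched motif in capitals, for Lamp1 (chr8:13159070-13159160, plus strand), Atg3 (chr16:45158705-45158793, plus) and Bnip3 (chr7:138909579-138909644, minus). Beside them stand Chac1 (chr2:119351019-119351086, plus) and Asns (chr6:7693210-7693262, minus) of the ATF4 list (named for their motifs), whose counts were 296, 906 and 854 and 1677, 5312 and 5223 in WT, KO and rescue. Chac1 carries its motif on the opposite strand. The 250 bases before Gabarapl2 (chr8:111940453-111940702, plus), the gene with the lowest ratio of KO against WT among the 37, held none of the 4 motifs.
Lamp1: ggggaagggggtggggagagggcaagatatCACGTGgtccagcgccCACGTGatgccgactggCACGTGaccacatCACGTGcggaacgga
Atg3: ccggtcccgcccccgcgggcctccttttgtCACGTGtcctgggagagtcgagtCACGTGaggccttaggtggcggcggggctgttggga
Bnip3: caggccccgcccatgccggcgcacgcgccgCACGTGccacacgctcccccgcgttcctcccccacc
Chac1: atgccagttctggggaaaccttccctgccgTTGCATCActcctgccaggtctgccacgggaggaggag
Asns: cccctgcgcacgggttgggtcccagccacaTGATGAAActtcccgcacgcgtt
Gabarapl2: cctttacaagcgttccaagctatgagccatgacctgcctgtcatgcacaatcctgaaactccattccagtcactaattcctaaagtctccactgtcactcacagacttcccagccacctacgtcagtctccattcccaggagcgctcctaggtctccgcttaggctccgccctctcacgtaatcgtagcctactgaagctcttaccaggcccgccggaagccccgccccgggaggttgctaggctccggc
The 5 promoters with CACGTG belonged to genes with log2 ratios of KO against WT from -0.45 (Lamp1) to 0.08 (Atg5), with Atg3 at -0.02, Bnip3 at -0.07 and Atg7 at -0.17.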

How the data were processed

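RNA of 3 libraries, 1 per group, was analysed. Per the submitters' processing notes, cutadapt 1.9.1, HISAT2 2.2.1 and featureCounts 2.0.0 were used with build GRCm39 (mm39). Strand and multi-mapping settings were not given in the sources used here. The deposited count column holds whole read counts per RefSeq transcript, per the file headers. The RPKM and TPM columns deposited by the authors were recomputed from the counts and lengths to within 4.98e-06 and 4.40e-06. Their totals run over all transcript rows, which share reads, so levels per length were computed from the gene counts instead.

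A gene's count was its row with the highest sum over the 3 libraries. TMM factors came from edgeR 4.0.16 under R 4.3.3. Log2 ratios had 0.5 added to each count, over 13381 genes that reached a mean CPM of 1. Calls were 2-fold, with 1.5-fold as a second threshold. Counting intervals are exact (Clopper-Pearson, 95%). Reads are not independent molecules, so the intervals cover counting error only. DESeq2 1.42.0 size factors were an alternative. Scripts were tested on simulated data.

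The 37 genes and all lists were chosen with earlier results of these data known. The rule named all 37 genes, in full where they passed 1.5-fold or lay at an end of their role group, Dnm1l, and from every other list the 2 genes of largest ratio in KO against WT, plus those 2 of rescue against KO, among genes reaching 100 counts. Genes were grouped by role. Some genes of these lists are not reported here by name.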

Additional observations from a re-analysis of the deposited data

How the results depend on the processing

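The 12 counts and 3 medians over the 37 genes were recomputed under 8 alternatives: DESeq2 size factors, total counts, no filter, a mean of 5 or more CPM, 5 added to each count, the sum over all rows, the lowest mRNA row, and the length trend removed. The 12 counts were the same in every alternative. The median of KO against WT lay between -0.0915 and -0.0681, that of rescue against KO between 0.040 and 0.057, and that of rescue against WT between -0.034 and 0.0027. Since all 37 genes have a mean above 5 CPM, no filter and a mean of 5 or more CPM could not change any of their values. Of 888 single-gene values, which include those under these settings, 18 left their counting interval. Of these, 13 did so with the length trend removed and 5 with the lowest mRNA row. Gabarapl2 in KO against WT lay between -0.85 and -0.69, and Map1lc3a in rescue against WT between 0.65 and 0.68. With the length trend removed, Ulk2, taken at 10561 bases, turned from 0.16 to -0.03 in KO against WT. For rescue against KO, Ulk2 turned from -0.15 to 0.05 and Gabarap from 0.13 to -0.05. By the trends at 5811 bases (0.11 and -0.11), near the 5813 bases of another Ulk2 row, neither sign of Ulk2 would turn. With the lowest mRNA row Becn1 turned from -0.14 to 0.03 in KO against WT. The share of all genes called depended on the filter: 14.1% and 15.3% were 2-fold higher and lower in KO against WT without it, and 3.62% and 2.21% at a mean of 5 or more CPM. In rescue against KO those shares were 12.1% and 10.2% without it and 0.492% and 0.0638% at 5 or more CPM, and in rescue against WT 14.5% and 13.9%, and 2.96% and 1.48%. No paired analysis was possible because each group has 1 library.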

Other observations

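Genes of muscle wasting, which share FoxO control with autophagy genes, differed by less than 2-fold between KO and WT where they passed the filter. Of 9 listed, 7 passed the filter and none differed 2-fold in any pair. Over all genes 5.35% were 2-fold higher and 4.07% lower in KO against WT, so none among 7 is near those shares. The median log2 ratio of the 7 in KO against WT was 0.22, with 5 above 0 and 2 below. Among all genes 6702 of 13381 lay above 0. The counting interval lay above 0 for 4 of the 7, lay below 0 for 1 and held 0 for 2. Fbxo32 (atrogin-1), a muscle ubiquitin ligase, had 1765 counts in WT, 2663 in KO and 2523 after rescue and was 1.54-fold higher in KO (log2 ratio 0.62, interval 0.53 to 0.71). Trim63 (MuRF1), the other ligase used as a wasting marker, had 438, 430 and 569 counts, with rescue the highest. Capn3, a muscle protease, had 284, 189 and 217 counts, and Cblb, another ubiquitin ligase, had 550, 668 and 542.

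Hypoxia targets, beside which Bnip3 is often read, went both ways. Of 17 measured, 1 passed 2-fold as higher in KO against WT (5.35% of all genes) and 2 as lower (4.07%). Their median log2 ratio was -0.02. Pfkfb3, which activates glycolysis, had 121, 257 and 241 counts, and Vegfa, an angiogenic factor, had 1684, 3190 and 3318. Ldha, lactate dehydrogenase A, was 1.71-fold lower in KO, with 12425, 7150 and 8935 counts, and Higd1a had 530, 384 and 502. The lower ones were Car9 (23, 4 and 41 counts) and Ankrd37 (63, 26 and 23), named after their values were seen. Bnip3 itself differed by 1.05-fold between KO and WT.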
